A study of Mus musculus with 6 samples.

Results

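Transcripts of 9 receptor genes of the transforming growth factor beta (TGF-beta) superfamily were examined in whole mouse embryos from diabetic and control pregnancies. The genes were Tgfbr1, Tgfbr2, Tgfbr3, Bmpr1a, Bmpr1b, Bmpr2, Acvr1, Acvr2a and Acvr2b, out of 18194 genes on an Affymetrix array of the mouse genome. Every probe set, a group of short probes read together as 1 signal, was taken that the array's annotation table assigns to exactly 1 symbol from these genes. This gave 28 of 45101 probe sets, of which 24 were bright enough to be tested. The embryos were of the inbred FVB strain and were collected at 10.5 days of gestation. Both groups shared this strain and age. The diabetes-exposed embryos came from dams given 2 injections of streptozotocin, a toxin of insulin-producing cells, at 100 mg per kg body weight when 7 to 9 weeks old. They were mated later, and their blood glucose exceeded 250 mg per dl. Embryos with a visible malformation were not used. Each group held 3 pools, each made from the RNA of 3 embryos of different pregnancies and read on 1 array.

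Ligands of this superfamily are dimers that bring together type II and type I receptors, both of which are serine/threonine kinases. The type II receptor phosphorylates the type I receptor, which in turn phosphorylates Smad proteins that enter the nucleus with Smad4. TGF-beta signals mainly through Tgfbr2 and Tgfbr1, bone morphogenetic proteins (BMPs) through Bmpr2 or the activin type II receptors together with Bmpr1a, Bmpr1b or Acvr1, and activin and nodal through Acvr2a and Acvr2b. Tgfbr3, also called betaglycan, has no kinase and presents ligand to the signalling receptors. In the mid-gestation embryo these receptors are known for their roles in heart cushion formation, left-right patterning, the dorsal neural tube and the skeleton.

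Of the 24 tested receptor probe sets, 10 were lower and 1 was higher in the diabetes-exposed pools (limma, adjusted p under 0.05), and 13 did not pass the test. Over all 30025 tested probe sets, 21.8% were called lower and 14.4% higher. The lower calls lay in 7 of the 9 genes, all but Bmpr1b and Acvr2a. These genes had 1 to 5 tested probe sets each, and the share of all genes with any lower probe set was not computed. Read at the brightest probe set of each gene, 3 of the 9 were lower, against 19.9% of all tested genes. A decrease of at least 2-fold was called for 5 probe sets of 4 genes, Tgfbr1, Acvr1, Acvr2b and Tgfbr3, against 11.0% of all tested probe sets. Tgfbr1 1420894_at, Tgfbr1 1420893_a_at and Tgfbr3 1425620_at were bright enough to be tested only through their control signals, which favours a decrease. They are also among the 10 lower calls, so their part in these counts is no support of its own. The other 2-fold calls are those of Acvr1 1416786_at and Acvr2b 1419140_at. The signals of the groups did not overlap for 12 tested receptor probe sets that were lower and 2 that were higher, against 28.0% and 21.9% of all tested probe sets. The median log2 fold change was -0.35 over the receptor probe sets and -0.05 over all tested probe sets. With only the brightest probe set of each gene, it was -0.08 for the 9 receptors and -0.0003 for all tested genes. Median centring of the arrays gave medians of -0.05 over the receptor probe sets and 0.25 over all tested probe sets. The median of the receptors thus stayed below that of all probe sets, while it came close to 0. After this scaling 6 receptor probe sets were called lower and 2 higher. Over all 30025 probe sets 3917 were then lower and 7456 higher, where 6550 and 4318 were called without it. For most of these genes the answer depended on which of its probe sets was read. Tgfbr1, Tgfbr3, Bmpr2 and Bmpr1a each had a brightest probe set that was not called and at least 1 dimmer probe set that was called lower.

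**Figure D1:**
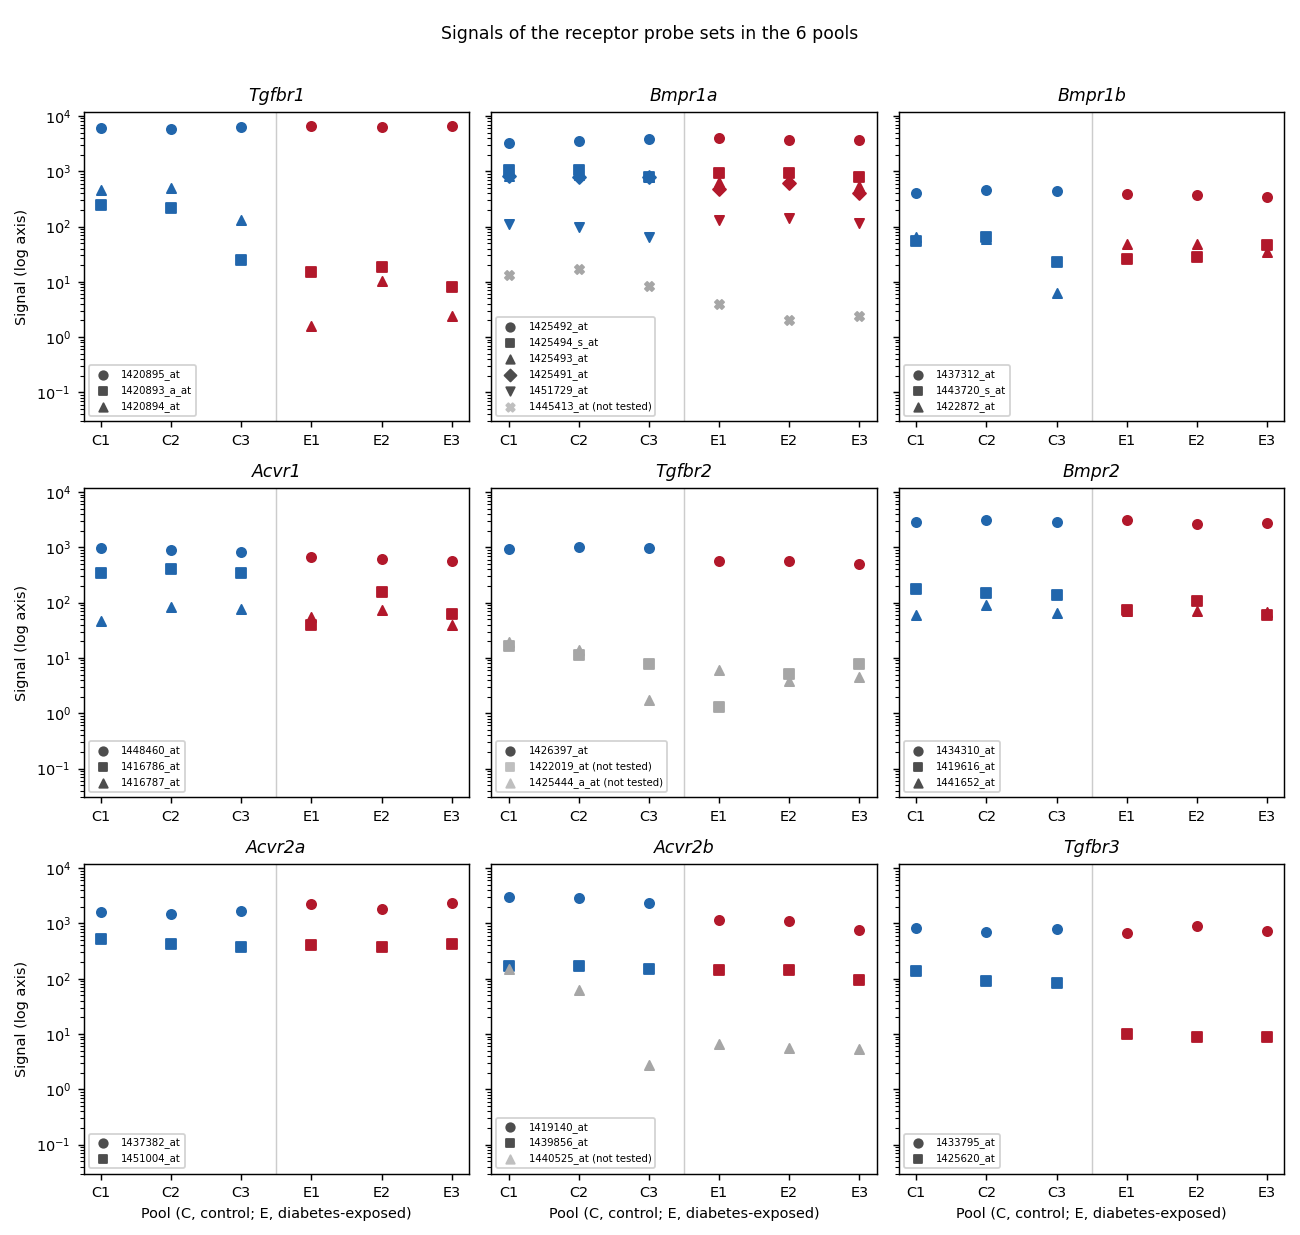
Signal of each receptor probe set (log axis) in control pools C1 to C3 (blue) and diabetes-exposed pools E1 to E3 (red), 1 panel per gene and 1 symbol shape per probe set, with the 4 untested probe sets in grey. The brightest Tgfbr1 probe set lies between 5822.8 and 6688.5 in all 6 pools, while the other 2 fall from at most 507.1 in control pools to at most 18.9 in exposed pools.

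The arrays themselves differed between the groups. Probe sets at the 3' end of the beta-actin transcript read 1.71, 1.76 and 2.19 times those at its 5' end in the control pools, and 10.1, 3.09 and 10.3 times in the exposed pools. The same ratio for Gapdh was 0.824, 0.832 and 0.921, and 1.84, 0.972 and 1.72. For the poly-A spikes, foreign transcripts added before labelling, the ratio of 3' to middle signal was 2.10, 2.07 and 2.52 in controls and 6.56, 3.47 and 7.00 in exposed pools. Control replicate 3 and exposed replicate 2 were therefore nearest to the other group. When this spike ratio was added to the limma fit as a covariate, 0 of the 24 receptor probe sets were called, the lowest adjusted p was 0.164, and 4 were lower at an unadjusted p under 0.05. That fit called 334 of all 30025 tested probe sets lower and 29 higher, where the fit without the covariate called 6550 and 4318. With the covariate 4470 of all tested probe sets had an unadjusted p under 0.05, in either direction. Pools of the 2 groups do not overlap in this ratio, so ratio and diabetes exposure cannot be told apart in these arrays. Where a probe set lies within its transcript is not given in the sources used here. As a check of the labelled tissue, all 12 markers of whole mid-gestation embryos were bright enough to test, while Prl8a2, a decidual hormone gene, read 5698.9 to 6522.1 in control pools and 30.7 to 39.3 in exposed pools. In RNA of whole embryos, fewer cells of a type and less RNA per cell cannot be told apart.

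Among the type I receptors, Tgfbr1, the signalling receptor for TGF-beta itself, gave different answers at its 3 probe sets, which were all designed from the same source sequence. Its brightest probe set, 1420895_at, had signals of 5942.2, 5822.8 and 6333.6 in control pools and 6532.2, 6191.7 and 6688.5 in exposed pools. The groups overlapped, the log2 fold change was 0.10 ± 0.08 (SE) and the adjusted p was 0.337. The sign turned under quantile normalization, to -0.18 with an adjusted p of 0.027, and under cyclic loess normalization, to -0.12 with an adjusted p of 0.14. Probe set 1420894_at read 466.1, 507.1 and 133.1 in control pools and 1.6, 10.4 and 2.4 in exposed pools. Every exposed pool lay far below every control pool, with a log2 fold change of -6.53 ± 0.80 (SE) and an adjusted p of 0.0009. The exposed signals were among the lowest on the arrays, so that the size of this change is uncertain, and with 32 added to each signal the log2 fold change was -3.27. The third probe set, 1420893_a_at, read 249.5, 212.3 and 24.6 in control pools and 15.1, 18.9 and 8.0 in exposed pools. The groups did not overlap, but control replicate 3 lay close to the exposed pools. The log2 fold change was -3.05 ± 0.85 (SE), or -1.78 with 32 added, and the adjusted p was 0.023. This call was lost without control replicate 1, control replicate 2, exposed replicate 1 or exposed replicate 3, where the log2 fold change was -2.46, -2.57, -3.15 and -2.69. Adjusted for the spike ratio, the log2 fold changes of the dim probe sets were -2.99 and -0.90, and neither was called.

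RefSeq places 2 start sites of Tgfbr1 on assembly GRCm38.p6, and the 250 bases before each are shown because transcripts of this gene can begin at either. The first window lies at chr4:47352972-47353221 and the second at chr4:47385966-47386215, both on the plus strand. Written 5' to 3', with matches to the GC box GGGCGG on either strand in capitals, they read as follows.
Tgfbr1 first start: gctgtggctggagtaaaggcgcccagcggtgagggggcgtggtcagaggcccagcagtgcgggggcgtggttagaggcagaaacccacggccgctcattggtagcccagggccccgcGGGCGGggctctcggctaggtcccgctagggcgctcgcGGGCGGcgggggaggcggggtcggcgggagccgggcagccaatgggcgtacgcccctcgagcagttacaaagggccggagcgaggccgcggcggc
Tgfbr1 second start: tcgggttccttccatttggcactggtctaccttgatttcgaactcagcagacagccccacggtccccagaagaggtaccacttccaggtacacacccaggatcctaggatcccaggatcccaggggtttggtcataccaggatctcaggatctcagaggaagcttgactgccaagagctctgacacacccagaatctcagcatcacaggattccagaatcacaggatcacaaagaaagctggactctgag
The first window held 29 CG dinucleotides and 2 GC boxes, and the second held 3 and 0. The median over 32851 RefSeq windows of the same length was 6 CG dinucleotides, and 32.7% of the windows held a GC box. The sequences say nothing on which start was used in these embryos, since no probe set could be placed on a transcript here.

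Acvr1, a type I receptor for BMPs and activin, fell at its brightest and at a dimmer probe set. Probe set 1448460_at read 956.4, 907.6 and 837.5 in control pools and 662.6, 611.8 and 576.3 in exposed pools. All exposed pools were lower, by 1.46-fold, with a log2 fold change of -0.55 ± 0.11 (SE) and an adjusted p of 0.005. The call was lost after median centring, where the log2 fold change was -0.25. Probe set 1416786_at read 337.2, 412.0 and 341.8 against 39.9, 153.5 and 62.7, a decrease of 4.98-fold with a log2 fold change of -2.32 ± 0.43 (SE) and an adjusted p of 0.004. Exposed replicate 2, the exposed pool with the lowest spike ratio, was the highest of the exposed pools, and alone against the controls it gave a log2 fold change of -1.24. Adjusted for the spike ratio, the log2 fold change was -0.35. The third probe set, 1416787_at, ranged from 46.5 to 84.5 in control pools and from 39.4 to 73.6 in exposed pools, with overlapping groups, a log2 fold change of -0.31 and an adjusted p of 0.555. All 3 come from 1 source sequence.

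Bmpr1a, the BMP type I receptor needed early in mouse development, has 6 probe sets. Its brightest, 1425492_at, read 3286.1, 3552.5 and 3883.5 in control pools and 4014.9, 3717.9 and 3736.2 in exposed pools, with overlapping groups, a log2 fold change of 0.10 ± 0.09 (SE) and an adjusted p of 0.421. The sign turned to -0.06 under quantile and -0.03 under cyclic loess normalization. Probe set 1425491_at read 818.2, 783.5 and 788.8 in control pools and 469.7, 607.5 and 410.2 in exposed pools, which were lower in all pools by 1.63-fold, with a log2 fold change of -0.70 ± 0.15 (SE) and an adjusted p of 0.007. After median centring it was -0.41 and not called. Probe set 1425493_at read 820.4, 848.7 and 793.3 against 636.7, 687.8 and 539.2, with a log2 fold change of -0.41 ± 0.12 (SE) and an adjusted p of 0.027. This call was lost under median centring, quantile and cyclic loess normalization, at -0.11, -0.20 and -0.28, and without control replicate 1, control replicate 2, exposed replicate 1 or exposed replicate 3, at -0.41, -0.38, -0.43 and -0.31. Adjusted for the spike ratio, these 2 probe sets changed by -0.11 and -0.08 on the log2 scale. Probe set 1451729_at went the other way, from 110.1, 98.6 and 65.0 to 132.0, 144.4 and 115.7, with no overlap, a log2 fold change of 0.55 ± 0.26 (SE) and an adjusted p of 0.138. It was called higher after median centring, quantile and cyclic loess normalization, at 0.85, 0.85 and 0.74. Probe set 1425494_s_at was not called, with a log2 fold change of -0.14 and an adjusted p of 0.464. These 5 probe sets come from 1 source sequence. The last, 1445413_at, was too dim to test, at 8.4 to 17.4 in control pools and 2.0 to 3.9 in exposed pools.

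Bmpr1b, a BMP type I receptor of limb cartilage and neural tissue, had no called probe set. The brightest, 1437312_at, read 404.8, 460.1 and 444.7 in control pools and 381.3, 379.1 and 347.7 in exposed pools. The exposed pools were lower without overlap, but the log2 fold change of -0.24 ± 0.12 (SE) had an adjusted p of 0.162, with an interval from -0.52 to 0.04. Its sign turned after median centring and quantile normalization, to 0.06 and 0.05. At 1443720_s_at the signals were 23.0 to 65.8 and 25.5 to 46.4, with a log2 fold change of -0.45 ± 0.51 (SE). At 1422872_at they were 64.3, 59.8 and 6.2 in control pools and 47.8, 47.4 and 35.0 in exposed pools. Control replicate 3 set the direction there: the log2 fold change was 0.58 ± 0.85 (SE) with it and -0.53 without it.

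Among the type II receptors, Acvr2b and Tgfbr2 were lower in every exposed pool at their brightest probe sets. Acvr2b, a receptor for activin, nodal and related ligands, read 2955.8, 2939.1 and 2299.4 in control pools at its brightest probe set, 1419140_at, and 1138.5, 1109.9 and 776.0 in exposed pools. Every exposed pool lay far below every control pool, and the decrease was 2.73-fold, with a log2 fold change of -1.45 ± 0.17 (SE) and an adjusted p of 0.0007. Leaving out any pool gave log2 fold changes of -1.57 to -1.27, exposed replicate 2 alone against the controls gave -1.29, and adjustment for the spike ratio gave -0.98, which was not called. Probe set 1439856_at read 167.6, 171.1 and 150.2 against 141.9, 143.3 and 96.3. The groups did not overlap, and the log2 fold change of -0.38 ± 0.22 (SE) was not called, with an adjusted p of 0.215. The remaining probe set, 1440525_at, was not tested. It read 151.0, 62.4 and 2.8 in control pools and 5.4 to 6.5 in exposed pools, so that control replicate 3 lay below the exposed pools.

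Tgfbr2, which binds TGF-beta and activates Tgfbr1, had 1 tested probe set, 1426397_at. It read 920.7, 1025.2 and 975.5 in control pools and 571.5, 578.4 and 502.0 in exposed pools. All exposed pools were lower, by 1.77-fold, with a log2 fold change of -0.82 ± 0.11 (SE) and an adjusted p of 0.0011. After adjustment for the spike ratio the log2 fold change was -0.67 and not called, with an adjusted p of 0.188. Both other probe sets were too dim to test, at 1.7 to 19.5 in control pools and 1.3 to 7.8 in exposed pools.

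Bmpr2, the BMP type II receptor known from vascular disease, was read by 3 probe sets. The brightest, 1434310_at, read 2905.5, 3136.8 and 2913.7 in control pools and 3080.2, 2602.6 and 2802.3 in exposed pools. The groups overlapped, with a log2 fold change of -0.08 ± 0.09 (SE), an interval from -0.29 to 0.13 and an adjusted p of 0.530, and after median centring the value was 0.22. Probe set 1419616_at read 174.5, 147.0 and 138.6 against 73.2, 107.2 and 59.0, a decrease of 1.97-fold with no overlap, a log2 fold change of -0.98 ± 0.27 (SE) and an adjusted p of 0.022. This call was lost under median centring and quantile normalization, at -0.68 in both, and without control replicate 1, control replicate 2, exposed replicate 1 or exposed replicate 3, at -0.88, -1.01, -0.94 and -0.78. Exposed replicate 2 alone against the controls gave -0.51, and adjustment for the spike ratio -0.02. At 1441652_at the log2 fold change was -0.03 ± 0.28 (SE), with an adjusted p of 0.944.

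Acvr2a, an activin type II receptor that BMPs also use, held the single higher call. Probe set 1437382_at read 1585.2, 1503.5 and 1712.0 in control pools and 2293.6, 1841.6 and 2350.8 in exposed pools. All exposed pools were higher, by 1.35-fold, with a log2 fold change of 0.43 ± 0.11 (SE) and an adjusted p of 0.019. Exposed replicate 2 was the lowest of the exposed pools, and alone against the controls it gave 0.20 and no call. The call was lost without control replicate 1, control replicate 2, exposed replicate 1 or exposed replicate 3, at 0.42, 0.38, 0.38 and 0.36, and adjustment for the spike ratio turned the value to -0.04. Probe set 1451004_at read 532.6, 427.1 and 378.1 against 399.7, 381.0 and 428.7, with overlap, a log2 fold change of -0.13 and an adjusted p of 0.537.

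The co-receptor Tgfbr3 split like Tgfbr1. Its brightest probe set, 1433795_at, read 839.6, 706.2 and 783.8 in control pools and 682.7, 888.2 and 731.0 in exposed pools, with overlap, a log2 fold change of -0.02 ± 0.13 (SE) and an adjusted p of 0.912. Its sign turned under each of the other 3 scalings, where the values were 0.28, 0.18 and 0.10. Probe set 1425620_at, from another source sequence, read 140.6, 92.7 and 84.0 in control pools and 10.2, 9.0 and 8.9 in exposed pools. All exposed pools were far lower, with a log2 fold change of -3.46 ± 0.43 (SE), or -1.71 with 32 added, and an adjusted p of 0.0009. Exposed replicate 2 did not stand above the other exposed pools here. The exposed signals lay near the low end of the arrays, so their order cannot show whether the spike ratio mattered for this probe set. After adjustment for the spike ratio the log2 fold change was -3.40 and not called.

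**Figure D2:**
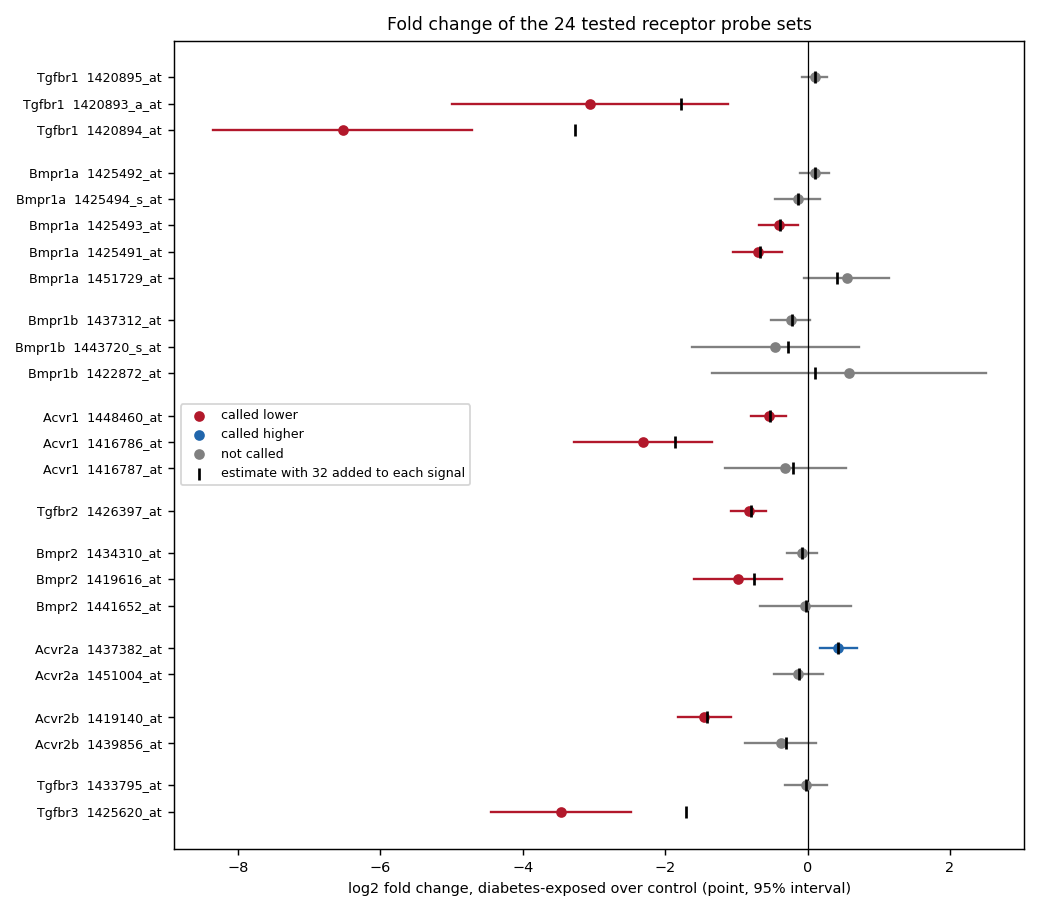
Log2 fold change of diabetes-exposed over control pools for the 24 tested receptor probe sets, grouped by gene with the brightest probe set of each gene first. Points are limma estimates with 95% intervals over 3 pools per group, in red where called lower, blue where called higher and grey where not called, and black ticks are the estimates with 32 added to each signal. The 10 lower calls lie between -6.53 and -0.41, and the interval of the brightest Tgfbr1, Tgfbr3, Bmpr1a, Bmpr1b and Bmpr2 probe sets covers 0.

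Of the 11 calls, 7 were kept whichever single pool was left out, and 5 of these were also kept under median centring, quantile and cyclic loess normalization and with exposed replicate 2 alone against the controls. These 5 were Acvr2b 1419140_at, Tgfbr2 1426397_at, Tgfbr3 1425620_at, Tgfbr1 1420894_at and Acvr1 1416786_at. Of these, Tgfbr3 1425620_at and Tgfbr1 1420894_at passed the filter on dim probe sets only through their control signals. They stood at percentiles 35.7 and 36.5 of mean log2 signal, where the dimmest 33.3% were left out. Their exposed signals were 8.9 to 10.2 and 1.6 to 10.4, and a filter of 50% left both untested. Tgfbr1 1420893_a_at, at percentile 39.0 with exposed signals of 8.0 to 18.9, passed in the same way. With exposed replicate 2 alone, the calls of Bmpr1a 1425491_at, Bmpr1a 1425493_at, Tgfbr1 1420893_a_at, Bmpr2 1419616_at and Acvr2a 1437382_at were lost. The last and those of Bmpr1a 1425493_at and Tgfbr1 1420893_a_at were also lost without a trend of the variance. None of the 11 calls was kept with the spike ratio as a covariate or by the unequal-variance test of the study's methods after Benjamini-Hochberg adjustment, which gave 8 lower and 1 higher receptor probe sets at an unadjusted p under 0.05. Over all 30025 tested probe sets this unequal-variance test called 333 lower and 81 higher after adjustment. It gave 9821 of them an unadjusted p under 0.05, in either direction. Among the 10 lower calls, exposed replicate 2 was the highest exposed pool in 7 and control replicate 3 the lowest control pool in 7. Over all 6550 probe sets called lower, these held for 64.4% and 65.9%, and over the probe sets that were not called, for 37.0% and 40.9%. The receptors therefore showed this order of pools about as often as other probe sets called lower, and its part in the receptor results was not tested beyond the covariate.

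**Figure D3:**
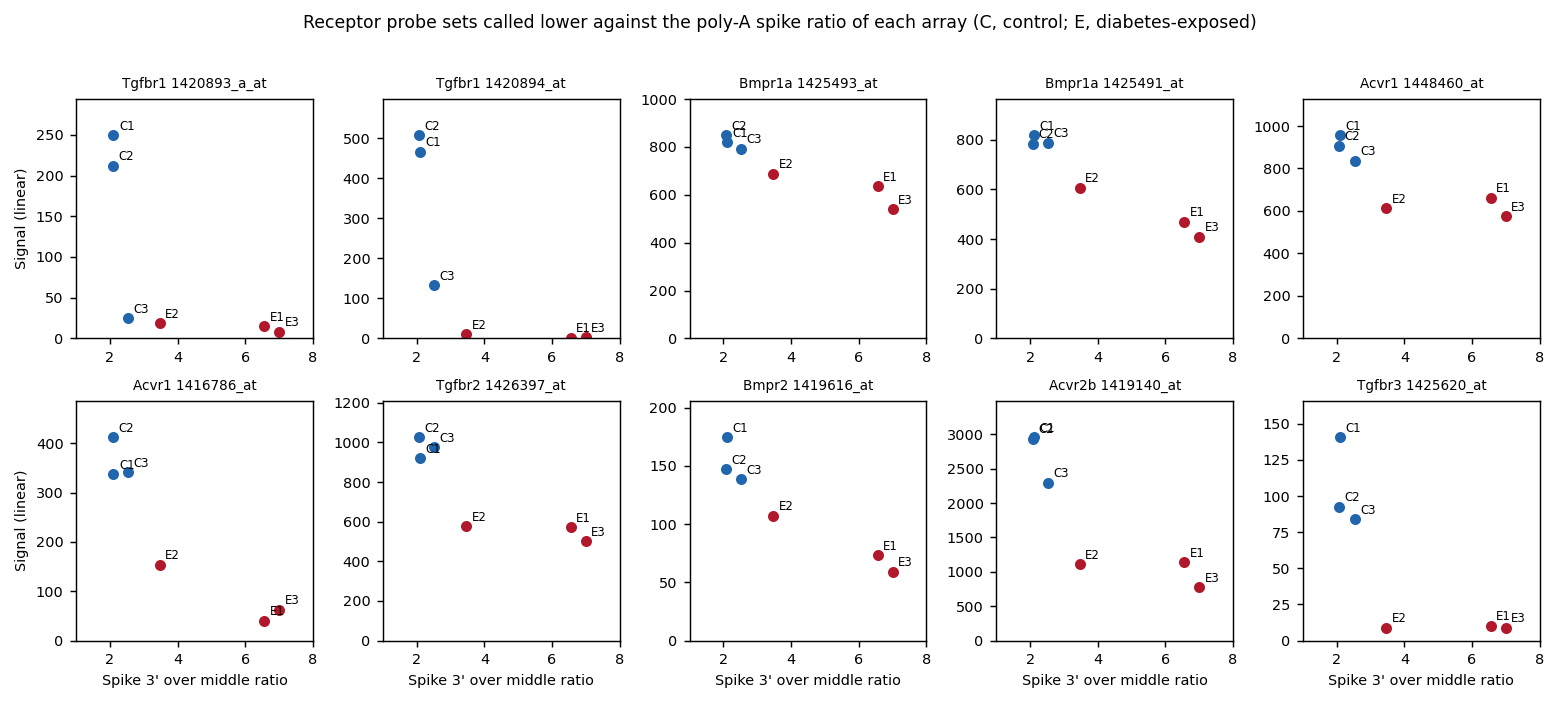
Signal of each receptor probe set called lower (linear axis from 0) against the ratio of 3' to middle signal of the poly-A spikes on the same array, for control pools C1 to C3 (blue) and diabetes-exposed pools E1 to E3 (red). The ratio is 2.07 to 2.52 in control pools and 3.47 to 7.00 in exposed pools. E2 lies between the controls and E1 and E3 for Bmpr2 1419616_at and Acvr1 1416786_at. It is level with E1 and E3 for Tgfbr3 1425620_at, whose exposed signals of 8.9 to 10.2 lie near the low end of the arrays. At brighter signals, E2 lies between E1 and E3 for Acvr2b 1419140_at and Acvr1 1448460_at, and close to E1 for Tgfbr2 1426397_at. E2 is the highest exposed pool in 7 of the 10 panels.

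Whether the probe sets of 1 gene changed by different amounts was tested by subtracting, on each array, the log2 signal of the gene's brightest tested probe set from that of each other one. Any factor that multiplies a whole array cancels in this difference, but quantile and cyclic loess normalization, which depend on signal, can change it. Of 15 such differences in 8 receptor genes, 5 were called lower and 1 higher in exposed pools, in 5 genes. Over 11266 differences of all genes, 21.3% were called lower and 4.95% higher. The 5 lower ones include those of Tgfbr1 1420894_at, Tgfbr1 1420893_a_at and Tgfbr3 1425620_at, which were tested only through their control signals. Tgfbr1 1420894_at stood at -3.67, -3.52 and -5.57 below the brightest probe set in control pools and at -12.0, -9.22 and -11.4 in exposed pools. It fell by 6.63 ± 0.82 (SE) more than the brightest probe set on the log2 scale, with an adjusted p of 0.009. Tgfbr1 1420893_a_at fell by 3.15 ± 0.90 (SE) more, with an adjusted p of 0.042, but set against the mean of the other Tgfbr1 probe sets its difference was 0.16 and not called. Tgfbr3 1425620_at fell by 3.44 ± 0.31 (SE) more than the brightest, with an adjusted p of 0.006, from differences of -2.58, -2.93 and -3.22 in control pools to -6.06, -6.62 and -6.36 in exposed pools. Acvr1 1416786_at fell by 1.77 ± 0.49 (SE) more, with an adjusted p of 0.039, and Bmpr1a 1425491_at fell by 0.80 ± 0.19 (SE) more, with an adjusted p of 0.026. The Bmpr1a difference was not called under quantile normalization, at -0.41, or cyclic loess normalization, at -0.53, while the other 5 called differences kept their calls there. Acvr2b ran the opposite way, since its brightest probe set fell by more than 1439856_at, with a difference of 1.07 ± 0.18 (SE) and an adjusted p of 0.014. The differences of Bmpr1a 1425493_at, Bmpr2 1419616_at and Acvr2a 1451004_at, at -0.51, -0.90 and -0.56, had adjusted p values of 0.052, 0.059 and 0.082. Without control replicate 1 or control replicate 2, 0 of the 5 lower differences were called, although their values were -6.34 to -0.73 and -6.26 to -0.81. Without exposed replicate 1 or exposed replicate 3, 2 were called, and without exposed replicate 2, 7 were. The Acvr1 difference was also lost without control replicate 3, at -1.76. The higher Acvr2b difference was lost without control replicate 1, control replicate 2 or exposed replicate 1, at 1.03, 1.05 and 1.08. Adjusted for the spike ratio, 0 differences of any gene were called by limma, and 3 receptor differences had an unadjusted p under 0.05.

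**Figure D4:**
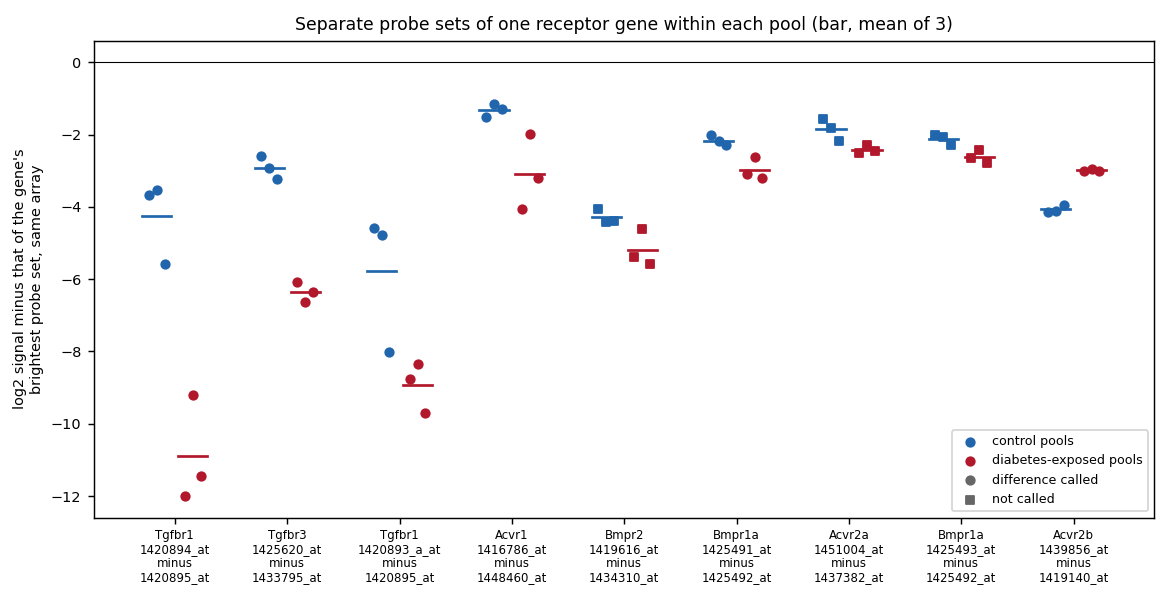
Log2 signal of a receptor probe set minus that of the brightest probe set of its gene on the same array, for control (blue) and diabetes-exposed (red) pools, with bars at the means of 3 pools. Circles mark differences called by limma and squares those not called, and shown are the 9 of 15 differences whose 95% interval excludes 0. In 8 of the 9 the exposed pools lie lower, and Acvr2b is the exception.

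Of the 8 dimmer probe sets that share a source sequence with the brightest of their gene, in 3 genes, 4 had a called difference, against 32.8% of all 2588 such differences within 1 source sequence. Of all 15 dimmer receptor probe sets, 46.7% were called lower, against 29.5% of the dimmer probe sets of all genes with 2 or more tested, and of the brightest probe sets of the same 8 receptor genes 2 were called lower, against 22.8% for the brightest of those genes. The lower dimmer ones include Tgfbr1 1420894_at, Tgfbr1 1420893_a_at and Tgfbr3 1425620_at, which were tested only through their control signals. This favours a decrease, so 46.7% against 29.5% cannot show a trait of the receptors. Both Tgfbr1 probe sets are also among the 4 called differences within 1 source sequence. The brightest was chosen by its mean over all 6 arrays. Read as the mean of all its tested probe sets, a gene could change its answer: Tgfbr1 and Tgfbr3 became lower, at -3.16 and -1.74 with adjusted p values of 0.0009 and 0.0003, and Acvr2a was not called, at 0.15 with an adjusted p of 0.314. This mean counts every probe set alike. The Tgfbr1 and Tgfbr3 values therefore follow their dim probe sets, whose exposed signals lay near the low end of the arrays, while their brightest probe sets stood at 0.10 and -0.02.

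Acvr2b had the smallest adjusted p at its brightest probe set, and the 250 bases before its RefSeq start are shown because it was the receptor whose decrease at that probe set exceeded 2-fold. They lie at chr9:119401928-119402177 on the plus strand of GRCm38.p6, with GC boxes in capitals.
Acvr2b: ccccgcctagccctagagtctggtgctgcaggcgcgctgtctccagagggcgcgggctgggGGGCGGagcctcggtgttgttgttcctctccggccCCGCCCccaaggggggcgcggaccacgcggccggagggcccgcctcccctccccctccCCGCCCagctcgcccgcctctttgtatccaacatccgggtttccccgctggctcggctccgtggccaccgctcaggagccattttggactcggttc
This window held 24 CG dinucleotides and 3 GC boxes. Of the 9 genes 8 had a RefSeq window, 11 in all, and 6 windows of 6 genes held a GC box, those of Acvr1, Acvr2a, Acvr2b, Bmpr1a, Bmpr2 and Tgfbr1. The letters ACGTG, the core of the hypoxia response element, and TGTTTAC, a forkhead core, were searched on both strands and stood in 0 of the 11 windows, against 16.6% and 3.17% of all windows.

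The rest of the pathway was read at 1 probe set per gene, the brightest. At this level 3 of the 9 receptors were lower (Acvr1, Tgfbr2 and Acvr2b) and 1 was higher (Acvr2a), against 19.9% and 17.6% of all 13956 tested genes. Of 89 tested genes of the pathway other than these receptors, 23 were lower and 11 higher, with a median log2 fold change of -0.12 against 0.00 for all genes. After median centring 13 were lower and 22 higher, so which direction was more frequent depended on the scaling, which moved the median of all genes to 0.30. The same held over all 30025 tested probe sets, where calls went from 6550 lower and 4318 higher to 3917 and 7456. The turn is therefore not particular to the pathway. Adjusted for the spike ratio 2 of the 89 were lower, Ski and Ltbp4, and 2 higher, Acta2 and Tagln, and no other gene of the pathway named below was called. Directions given below for single genes held under all 3 other scalings except where stated.

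Among 10 tested other receptors and co-receptors, 2 were lower and 1 was higher. Rgma, a BMP co-receptor, fell from 555.6 ± 112.1 (SD, n = 3) to 164.2 ± 19.8, a log2 fold change of -1.74. Acvr1b, the activin and nodal type I receptor, fell by 0.39 on the log2 scale, and was not called after median centring, at -0.09, or quantile normalization, at -0.24. Bambi, a pseudoreceptor that blocks signalling, rose from 1276.5 ± 116.3 to 1892.6 ± 107.3, a log2 fold change of 0.57. Of 17 tested ligand genes 4 were lower and 1 was higher, with a median of -0.36. Tgfb1, the ligand of Tgfbr2 and Tgfbr1, fell from 394.1 ± 97.4 to 76.1 ± 34.0, a log2 fold change of -2.46. Bmp1, which despite its name is a protease that cleaves procollagen and chordin, fell by 0.86 on the log2 scale, and Bmp5 rose by 0.53.

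Of 16 tested secreted modulators 4 were lower and 0 were higher, among them Ltbp1 at -0.78 and Ltbp4 at -1.69, which bind latent TGF-beta in the matrix. Of 11 tested Smads and corepressors 5 were lower and 2 higher. Ski, a corepressor of Smads, fell from 1742.0 ± 21.2 to 699.3 ± 38.0, a log2 fold change of -1.32, and was also called lower after adjustment for the spike ratio, at -1.29. Smad6, an inhibitory Smad of the BMP branch, fell by 1.59 on the log2 scale, while Smad1 and Skil rose by 0.48 and 0.44. With the covariate Smad1 and Skil stood at -0.08 and -0.01.

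Of 18 tested genes of receptor adaptors and turnover 5 were lower and 2 higher. Smurf1, a ubiquitin ligase of receptors and Smads, and Tab1, a partner of the kinase Map3k7, fell by 0.97 and 0.83 on the log2 scale, and Wwp1, another ubiquitin ligase, rose by 0.58. Adjusted for the spike ratio these stood at -0.44, -0.18 and 0.10, with no call. Fkbp1a, which binds type I receptors, rose by 0.26, but stood at -0.06 under quantile and -0.02 under cyclic loess normalization. Of 17 tested transcriptional targets 3 were lower and 5 higher, with a median of 0.23. Acta2 and Tagln, contractile genes of smooth and embryonic heart muscle, rose from 4357.6 ± 105.2 to 8750.6 ± 830.6 and from 851.8 ± 43.7 to 1605.5 ± 173.6, and Id4 and Msx1 fell by 1.21 and 0.66 on the log2 scale, the latter at -0.36 and not called after median centring. Beside these, all 10 listed heart muscle markers were higher, with summed signals of 24000 to 28928 in control and 45339 to 49314 in exposed pools, and 6 of 8 neural progenitor markers were lower and 1 was higher, with sums of 19188 to 20434 and 13563 to 16120. Of 8 endothelial markers 3 were lower and 1 higher, with sums of 4056 to 4097 and 3219 to 4298. Over all tested genes 19.9% were lower and 17.6% higher. The neural calls of Sox2 and Pax6 were lost after median centring, Fabp7 under quantile and cyclic loess normalization, and endothelial Pecam1 under all 3. Those of Sox1, Notch1, Tie1, Cdh5, Myl7, Tnnt2 and Csrp3 were kept. Adjusted for the spike ratio, Pax6 stood at 0.10 and Pecam1 at 0.50, while Sox1, Sox2, Notch1 and Myl7 kept their calls. Of 14 decidual and placental markers 8 were on the array and 2 were bright enough to test, with sums of 5939 to 6789 in control and 266.6 to 413.6 in exposed pools, most of it Prl8a2 in controls. Prl6a1, another prolactin relative, was too dim to test and read 68.8, 49.9 and 54.1 in control pools and 4.5, 6.7 and 12.1 in exposed pools. Plac1, a placental gene, read 267.2, 240.4 and 240.3 against 374.6, 352.8 and 235.9 and was not called, and Tpbpa, a trophoblast marker, lay at 35.2 or less in every pool. The part of these cell types in the receptor results was not tested.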

How the data were processed

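Whole-embryo RNA was read on 6 arrays. The deposited intensity of a probe set is linear and was made by the authors with GCOS and MAS5, from matched and mismatched probes, after one-cycle labelling. No version is given in the sources used here. Without its lowest and highest 2% of signals each array had a mean of 500.0, so each value is relative to the rest of its pool. Detection calls were not used. Log2 values were taken with no new scaling. The dimmest 33.3% of probe sets by mean log2 value and 64 control probe sets were left out, and 30025 were tested. The comparison used limma 3.58.1 (R 4.3.3; lmFit, eBayes with a trend, two-sided) with Benjamini-Hochberg adjustment over these, or over all 11266 within-gene differences, and a call is an adjusted p under 0.05. The ± after a signal is the SD of 3 pools. For arrays, depth means signal over background. Precision is limited by the number of arrays, since an exact permutation test of 3 against 3 cannot go below p = 0.1. The spike ratio averages 8 pairs on the log2 scale. The annotation gives 1 symbol to 34958 probe sets, several to 932 and none to 9211.

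Receptors, gene lists, tests and alternatives were chosen with earlier results of these data known. All receptor probe sets are named, and of each pathway list up to 2 genes that rose and 2 that fell with the smallest adjusted p. The 3 genes most like Acvr2b over the arrays were named by distance. Prl8a2 and Tpbpa, markers of decidua and placenta, were chosen after their values were seen. Alternatives were 3 scalings, a pseudocount of 32, other filters on dim probe sets, no trend, the spike ratio, leaving out pools, a replicate block, other references within a gene, and the methods' Welch and regularized tests. Scripts were tested on simulated data. Plots used matplotlib 3.10.9 (Python 3.11.15).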

Additional observations from a re-analysis of the deposited data

How the results depend on the processing

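With the 3' to middle ratio of the spikes as a covariate, limma called 0 receptor probe sets lower (4 at an unadjusted p under 0.05), 0 higher (0), 0 within-gene differences lower, and 2 pathway genes lower and 2 higher. Of all 30025 probe sets that fit called 334 lower and 29 higher, and 4470 had an unadjusted p under 0.05 in either direction. The sign then turned for Tgfbr3 1433795_at (0.36), Acvr1 1416787_at (0.45), Bmpr1a 1425492_at (-0.025), Bmpr1a 1425494_s_at (0.17), Tgfbr1 1420895_at (-0.055), Acvr2a 1437382_at (-0.037), Acvr2b 1439856_at (0.091) and Bmpr2 1441652_at (0.061), all log2 fold changes, and for the differences of Acvr1 1416786_at (0.15) and Bmpr2 1419616_at (0.24). Median centring gave 6 lower and 2 higher receptor probe sets and 13 lower and 22 higher pathway genes, and turned the sign of Tgfbr3 1433795_at (0.28), Bmpr1a 1425494_s_at (0.16), Bmpr1b 1437312_at (0.058), Acvr2a 1451004_at (0.17), Bmpr2 1434310_at (0.22) and Bmpr2 1441652_at (0.27). Quantile and cyclic loess normalization each gave 2 higher receptor probe sets. Median centring, quantile and cyclic loess normalization called 3917, 5240 and 5757 of all 30025 probe sets lower, and 7456, 6292 and 5203 higher. Quantile normalization turned Tgfbr3 1433795_at (0.18), Bmpr1a 1425492_at (-0.063), Bmpr1a 1425494_s_at (0.032), Bmpr1b 1437312_at (0.048), Tgfbr1 1420895_at (-0.18), Acvr2a 1451004_at (0.14) and Bmpr2 1441652_at (0.24). Cyclic loess turned Tgfbr3 1433795_at (0.10), Bmpr1a 1425492_at (-0.028), Tgfbr1 1420895_at (-0.12), Acvr2a 1451004_at (0.068) and Bmpr2 1441652_at (0.13). Without a trend 8 receptor probe sets were lower and 0 higher, and 3 differences were lower. Leaving out single pools gave 7 to 10 lower and 0 to 1 higher receptor probe sets, 0 to 7 lower differences, 17 to 28 lower and 6 to 14 higher pathway genes, and log2 fold changes that changed sign for Tgfbr3 1433795_at (-0.13 to 0.057), Acvr2a 1451004_at (-0.24 to 0.0029), Bmpr2 1441652_at (-0.16 to 0.15) and Bmpr1b 1422872_at (-0.53 to 1.16). Exposed replicate 2 alone against the controls, where a single pool is assumed to vary like the others, gave 6 lower and 0 higher, with Tgfbr3 1433795_at at 0.20 and Acvr1 1416787_at at 0.13. The methods' Welch test gave 0 lower and 0 higher after adjustment over all 30025 probe sets, with 8 lower and 1 higher at an unadjusted p under 0.05. Of all 30025 it called 333 lower and 81 higher, and 9821 had an unadjusted p under 0.05 in either direction. The regularized test gave 10 and 1, against 6795 lower and 4435 higher of all 30025. With the mean of the other probe sets as reference 4 differences were lower, and Tgfbr1 1420893_a_at stood at 0.16. Reading pathway genes at the mean of their probe sets gave 33 lower and 8 higher. Beyond the alternative's own construction, the cause of these changes was not tested. A pseudocount of 32 and no filter changed no receptor call. Leaving out probe sets of suffix _s_at or _x_at changed none either, but could hardly do so. The tested receptor probe sets it removed, Bmpr1a 1425494_s_at and Bmpr1b 1443720_s_at, were not called in the main fit. A filter of 50% left fewer receptor probe sets, with 7 lower and 1 higher. Tgfbr1 1420894_at, Tgfbr1 1420893_a_at and Tgfbr3 1425620_at were then too dim to test, so this filter cannot show whether their calls hold. Tgfbr1 and Tgfbr3 had no lower call under it. It gave 4 lower differences, without those of these probe sets and with those of Bmpr1a 1425493_at and Bmpr2 1419616_at newly called.

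Same-numbered pools had deviations that correlated at 4.9e-05, 0.076 and 0.12, and pools of different number at -0.12 to 0.070. With 3 pools per group these values cannot show whether pools were paired. The labels state no pairing, and the main fit used none. With a replicate block, 10 receptor probe sets were lower and 1 higher, 5 differences were lower, and 23 pathway genes were lower and 13 higher. With 3 pools per group and exposed signals near the low end of the arrays, the size of the Tgfbr1 and Tgfbr3 decreases at their dim probe sets is poorly fixed.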

Other observations

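The profile of Acvr2b over the 6 arrays, taken as log2 signal minus its own mean at the brightest probe set, was compared with those of the other 13955 tested genes. The smallest root mean square distances on the log2 scale were 0.074 for Camk2n2, 0.079 for Fzd7 and 0.082 for Lrp1. Camk2n2 read 433.3, 443.9 and 368.7 in control pools and 175.9, 158.3 and 128.9 in exposed pools. Fzd7, a Wnt receptor gene, read 2490.5, 2328.5 and 2166.1 against 1020.7, 942.4 and 688.2. Lrp1, a lipoprotein receptor gene, read 1552.2, 1400.6 and 1136.7 against 548.0, 516.8 and 424.9. The nearest of the other receptors was Tgfbr2, at a distance of 0.357. A probe set that the annotation table assigns to both Orc4 and Acvr2a was not counted among the receptors. It read 28.9, 42.5 and 33.0 in control pools and 43.3, 18.0 and 37.9 in exposed pools.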
